A study of Homo sapiens with 6 samples.

Results

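The 35 genes described here encode the clotting factors of plasma, the proteins that restrain them, the plasminogen system that dissolves clots, and the cell-surface receptors that thrombin and related proteases cleave. They were chosen by name, as the rows of the deposited count table whose gene symbol is one of the 35, and all 35 were among the 20289 genes of the table. RNA was measured in Huh7, an established human hepatocellular carcinoma cell line, in 3 libraries of wild-type cells (WT) and 3 libraries of cells carrying a knockout of UBE2S, and the question of the study was what UBE2S regulates in these cells. UBE2S extends ubiquitin chains on substrates of the anaphase-promoting complex, a ligase of dividing cells. The labels give no treatment, no time and no method of knockout, and do not state if cultures were separate or if the knockout was 1 clone. The p-values therefore reflect only how much these 6 libraries vary, and a difference of clones and one of genotype cannot be told apart.

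Clotting is a chain of protease activations. Tissue factor with factor VII (the extrinsic pathway), or factor XII with kallikrein and kininogen (the contact pathway, which feeds factors XI, IX and VIII), activates factor X, which with factor V turns prothrombin into thrombin, and thrombin turns fibrinogen into fibrin. Antithrombin, heparin cofactor II, tissue factor pathway inhibitor and the protein C system hold the chain back, and plasmin, made from plasminogen by the activators uPA and tPA, digests fibrin. Hepatocytes make most of these proteins, whereas thrombomodulin, tPA and most factor VIII come from endothelial cells.

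Library totals lay between 21840499 and 27910396 estimated counts, and levels are given as CPM, the count scaled to the TMM-adjusted library size. WT replicate 1 differed more from the other WT libraries (chi-square per degree of freedom 8.11 and 10.4) than those differed from each other (1.79). UBE2S, the targeted gene, was at 234, 220.0 and 216 CPM in WT and at 47.6, 45.4 and 44.2 CPM in the knockout (log2 fold change -2.29, SE 0.04, edgeR adjusted p = 1.6e-12). All 8 hepatocyte markers were tested, with a summed level of 30240 to 30780 CPM in WT and 26700 to 27210 CPM in the knockout. At an edgeR adjusted p under 0.05, 7 were lower and 1 higher, beside 30.7% and 29.4% of all tested genes. Their log2 fold changes ran from -0.57 to 0.40, with a median of -0.198. The summed level of 5 endothelial markers was 5.51 to 6.82 CPM in WT and 2.27 to 2.52 CPM in the knockout, most of it PECAM1, and KDR had 0 counts. The summed level of 5 platelet markers was 0.856 to 1.42 CPM in WT and 1.73 to 1.89 CPM in the knockout, with GP9, PF4 and PPBP at 0. That of 4 immune markers, nearly all of it LYZ, was 290 to 313 CPM in WT and 179 to 182 CPM in the knockout. For 4 stromal markers the sum, most of it PDGFRB, was 9.14 to 9.88 CPM in WT and 16.3 to 17.7 CPM in the knockout. They did not move together. At the same threshold COL1A1 and PDGFRB were higher (log2 fold change 1.24 and 0.96), LUM was lower (-2.035) and DCN was not tested. The part of these markers in the results below was not tested. In bulk RNA, fewer cells making a transcript and less transcript per cell cannot be told apart.

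The coagulation genes moved in both directions in the knockout. The 3 fibrinogen chains, F13B, tissue factor and the receptors F2R and F2RL1 were higher, while alpha-2-macroglobulin, the carboxypeptidase CPB2, kininogen, prekallikrein, heparin cofactor II and protein Z inhibitor were lower. The filter on low counts left 33 of the 35 genes. A gene was called higher or lower when its edgeR quasi-likelihood test, with no covariate, gave a Benjamini-Hochberg adjusted p under 0.05 over all 13265 tested genes. Of the 33 genes, 28 (84.8%) were called, against 60.1% of all tested genes: 13 were higher (29.4% of all tested genes were) and 15 lower (30.7% of all). Of all tested genes 18.9% were called with a log2 fold change of at least 0.5 in size, and 13 of the 33 coagulation genes were, 7 higher and 6 lower. At 28 of the 33 genes the CPM ranges of the groups did not overlap, as at 65.8% of all tested genes. The median log2 fold change of the 33 genes was 0.087, beside -0.00057 over all tested genes, and it was 0.018 without WT replicate 1.

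**Figure D1:**
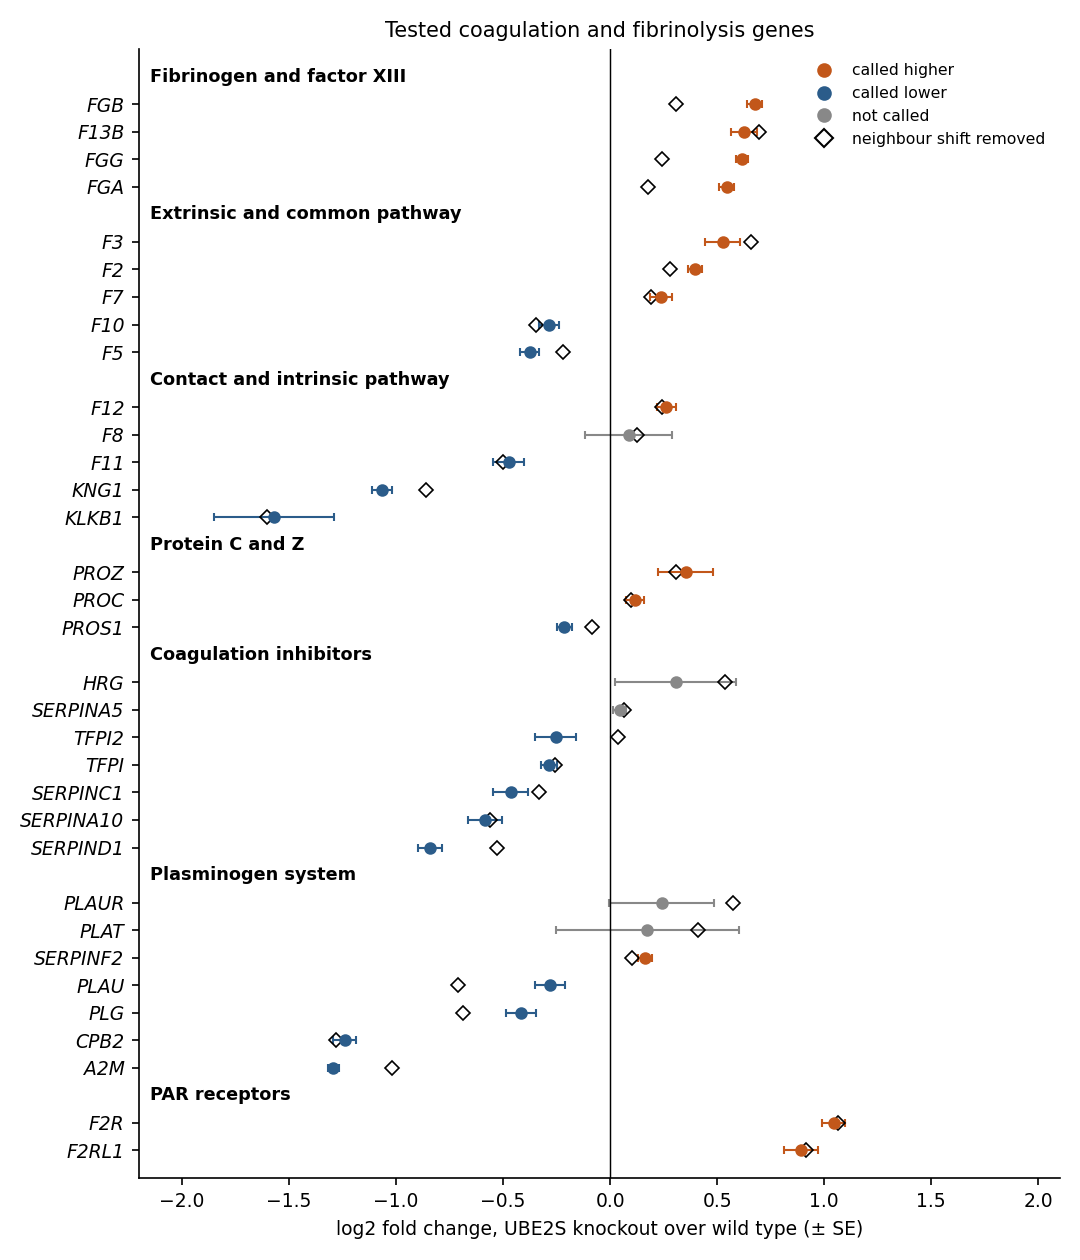
Log2 fold change of the 33 tested genes, knockout over wild type, with its SE as a bar, grouped by role; colour gives the edgeR call and open diamonds give the value with the shift of the chromosome neighbours removed. Fibrinogen, F13B and the PAR receptors lie to the right of 0, and A2M, CPB2, KNG1 and KLKB1 lie to the left of -1.

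In RNA abundance the group is dominated by few genes. Per kb of exon, FGB was the most abundant transcript in both groups, at 375 ± 17.6 CPM per kb in WT and 599 ± 8.89 in the knockout (mean ± SD, n = 3 each), followed by FGA at 170.1 ± 8.6 and 248 ± 2.85. A2M came next in WT, at 136 ± 0.670 CPM per kb, and ranked 6 in the knockout, at 55.4 ± 0.412. SERPINF2, the gene of the plasmin inhibitor alpha-2-antiplasmin, ranked 4 in both groups (92 ± 4.0 and 103 ± 1.40 CPM per kb). FGG was at 79.5 ± 1.39 CPM per kb in WT and passed SERPINF2 in the knockout, at 122 ± 1.77. In WT the neighbours F12 and F10 (20.1 ± 0.976 and 19.6 ± 0.828), and PLAU and F2R (6.01 ± 0.243 and 5.93 ± 0.408), differed by less than either SD. So did F2RL1 and PLG (2.77 ± 0.0478 and 2.74 ± 0.178), and PLG and PROZ (2.56 ± 0.354), among others. At the low end KLKB1, PLAUR, F8, HRG and PLAT were all under 1 CPM per kb in both groups. These lengths are unions of all annotated exons, so genes with long unused exons are set too low in this order.

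**Figure D2:**
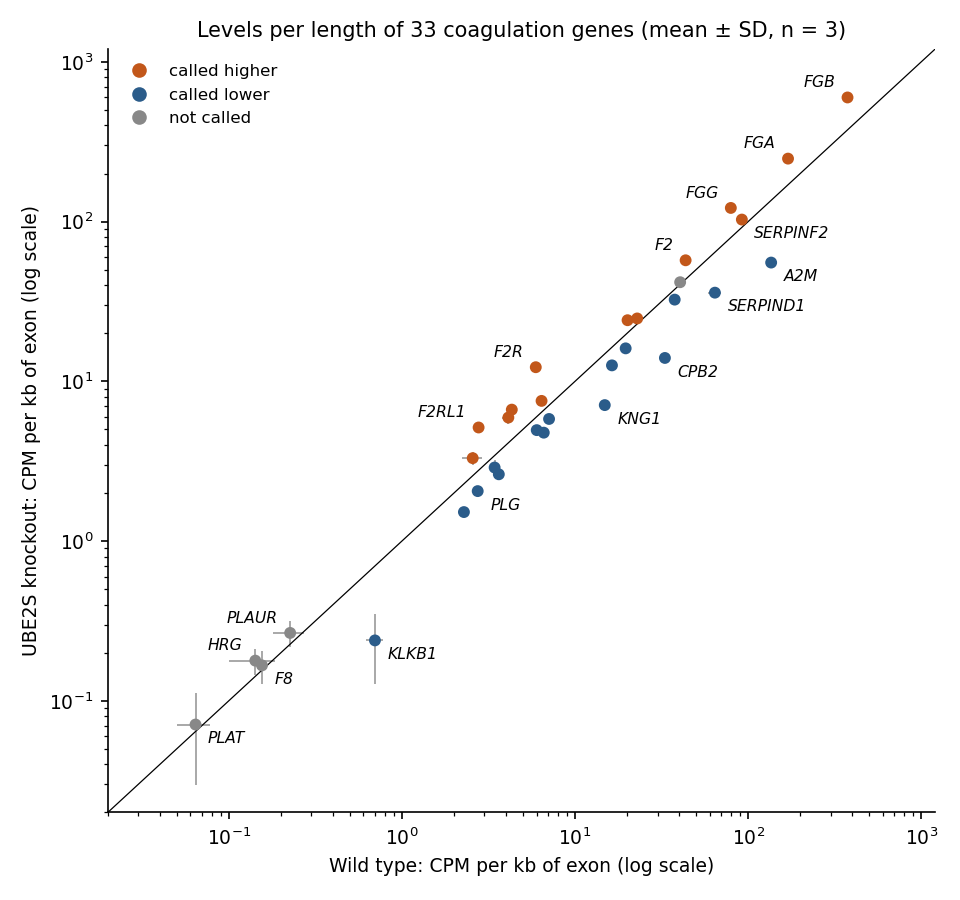
Level per kb of exon of the 33 genes with counts, wild type on the x axis and knockout on the y axis, both on log scales, with mean ± SD over 3 libraries and the line of equal levels. FGB lies highest in both groups, A2M lies below the line at 136 and 55.4 CPM per kb, and F2R lies above it at 5.93 and 12.3 CPM per kb.

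The 35 genes together took 0.430% to 0.438% of the counts in WT libraries and 0.479% to 0.485% in knockout libraries. Within that sum, FGA, FGB and FGG held 46.1%, 45.2% and 44.9% in WT replicates 1 to 3 and 63.4%, 63.8% and 63.2% in the knockout replicates. A2M held 19.5%, 20.1% and 20.3% in WT and 7.38%, 7.36% and 7.41% in the knockout. The 3 chains summed to 1975 ± 75.7 CPM in WT and 3042 ± 40.9 CPM in the knockout, so the rise of the total lay in them. The 32 other genes summed to 2374 ± 30.9 CPM in WT and 1751 ± 8.66 CPM in the knockout. Within that fall, A2M alone went from a mean of 868 CPM to 354 CPM. Of the 30 tested among the 32, 10 were called higher and 15 lower, beside 29.4% and 30.7% of all tested genes.

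**Figure D3:**
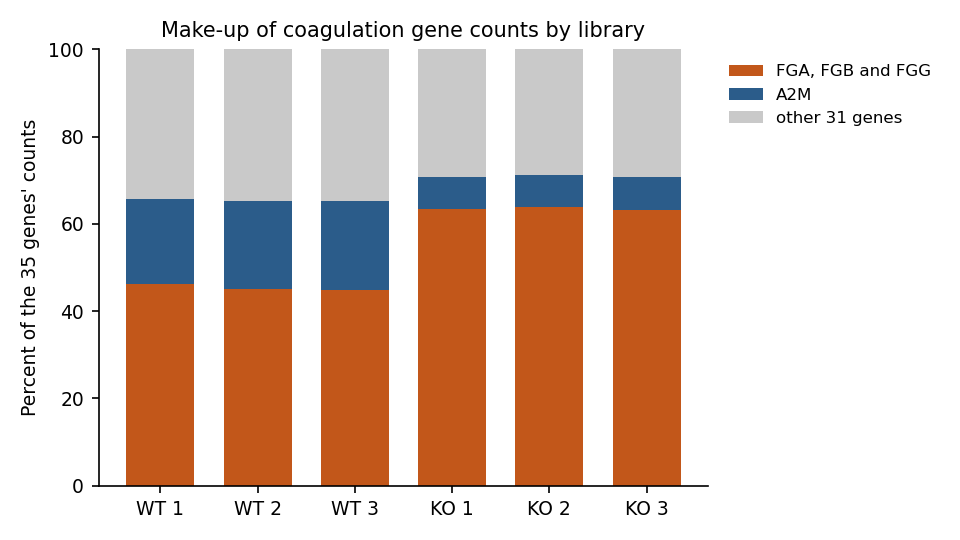
Share of the 35 genes' estimated counts held by the 3 fibrinogen chains, by A2M and by the other genes in each library, in percent. The fibrinogen share is 44.9% to 46.1% in wild type and 63.2% to 63.8% in the knockout, and the A2M share 19.5% to 20.3% and 7.36% to 7.41%.

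Fibrinogen is a dimer of 3 chains, Aα, Bβ and γ, from the genes FGA, FGB and FGG, which lie side by side on chromosome 4 (FGB from 154562956 to 154571086 on the plus strand, FGA from 154583126 to 154590766 and FGG from 154604134 to 154612967 on the minus strand, GRCh38). FGB was at 1071, 988 and 989.6 CPM in the WT replicates and at 1602, 1649 and 1615 CPM in the knockout replicates (log2 fold change 0.67, SE 0.03, edgeR adjusted p = 6.3e-09). FGA was at 711, 663 and 645 CPM in WT and 978, 994 and 972 CPM in the knockout (log2 fold change 0.54, SE 0.04, edgeR adjusted p = 5.2e-08). FGG was at 281, 287 and 290.4 CPM in WT and 435, 446 and 435 CPM in the knockout (log2 fold change 0.62, SE 0.03, edgeR adjusted p = 2.6e-09). For each chain all knockout libraries lay above all WT libraries, and 65.8% of all tested genes had no overlap in either direction. The proportions of the chains moved less than their levels. FGB had 1.51 ± 0.023 counts per FGA count in WT and 1.65 ± 0.013 in the knockout, a log2 difference of 0.13 with no overlap between groups (exact two-sided permutation p = 0.1, the smallest that 3 against 3 libraries can give). FGG had 0.426 ± 0.028 counts per FGA count in WT and 0.447 ± 0.002 in the knockout (exact permutation p = 0.4), and there the groups overlapped. F13B, which encodes the carrier subunit of the fibrin-crosslinking factor XIII and lies on chromosome 1 (197038741 to 197067267, minus strand), was at 12.1, 13 and 12.4 CPM in WT and 19.6, 19.1 and 19.2 CPM in the knockout (log2 fold change 0.63, SE 0.06, edgeR adjusted p = 1.7e-06).

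The promoters of these 4 genes are shown because the genes rose together, as 250 bases before and 50 after the RefSeq start in GRCh38.p14, on the strand of the gene. Capitals mark 2 motifs found in promoters of liver genes, searched on both strands: GTTAAT (or ATTAAC), and TTGCNNAA (or its reverse complement), a C/EBP motif.
FGB, chr4:154562730-154563029, plus strand: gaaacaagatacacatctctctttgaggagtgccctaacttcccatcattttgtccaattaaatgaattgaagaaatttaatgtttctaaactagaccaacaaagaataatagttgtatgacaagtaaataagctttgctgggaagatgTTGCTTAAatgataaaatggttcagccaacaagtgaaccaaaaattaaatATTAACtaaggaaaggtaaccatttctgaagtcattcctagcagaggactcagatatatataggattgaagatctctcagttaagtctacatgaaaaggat
FGA, chr4:154590693-154590992, minus strand: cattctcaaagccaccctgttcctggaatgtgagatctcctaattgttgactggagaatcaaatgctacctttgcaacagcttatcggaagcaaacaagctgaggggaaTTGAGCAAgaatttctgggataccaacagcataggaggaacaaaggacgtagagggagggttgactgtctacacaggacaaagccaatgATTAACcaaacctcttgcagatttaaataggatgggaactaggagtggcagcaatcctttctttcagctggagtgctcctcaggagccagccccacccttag
FGG, chr4:154612607-154612906, minus strand: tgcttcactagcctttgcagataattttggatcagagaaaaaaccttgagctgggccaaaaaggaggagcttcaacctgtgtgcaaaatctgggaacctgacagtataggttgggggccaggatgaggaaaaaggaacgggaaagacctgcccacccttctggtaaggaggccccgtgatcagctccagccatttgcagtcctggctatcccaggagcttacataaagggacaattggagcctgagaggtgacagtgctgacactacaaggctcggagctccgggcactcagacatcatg
F13B, chr1:197067211-197067510, minus strand: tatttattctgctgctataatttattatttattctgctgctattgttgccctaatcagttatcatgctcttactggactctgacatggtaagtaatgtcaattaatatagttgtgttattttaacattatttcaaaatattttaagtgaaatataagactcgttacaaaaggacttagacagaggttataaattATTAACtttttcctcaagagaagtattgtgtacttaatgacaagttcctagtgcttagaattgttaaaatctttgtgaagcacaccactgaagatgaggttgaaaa
The GTTAAT motif began 51 bases before the start in FGB, 52 in FGA and 56 in F13B, and FGB and FGA also held the C/EBP motif, 101 and 141 bases before the start. The FGG window held neither. Another FGB window in the table, from a start further downstream, holds the same motifs, 82 and 132 bases before that start. Of all 35116 promoter windows of this length, 6.88% held the GTTAAT motif and 10.5% the C/EBP motif.

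The surroundings of the fibrinogen genes leaned the same way. The 25 nearest tested genes on each side of FGA, FGB and FGG among them, span 22.8 Mb. Of these 50 neighbours 37 had a log2 fold change above 0, with a median log2 fold change of 0.37. PLRG1, the nearest tested gene beyond FGB, had a log2 fold change of 0.37. The values of the 50 neighbours ran from -3.76 to 3.82, and 33 lay below FGA and 17 above it. With the median of the neighbours removed in the fit, FGB had a log2 fold change of 0.31, FGG of 0.24 and FGA of 0.18, smaller by more than 1.5 times and still called. The median removed for each chain was taken over neighbours that included the other chains. F13B, whose neighbours had a median of -0.07, had a log2 fold change of 0.69. Under the same fit 54.5% of all tested genes and 25 of the 33 coagulation genes were called.

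**Figure D4:**
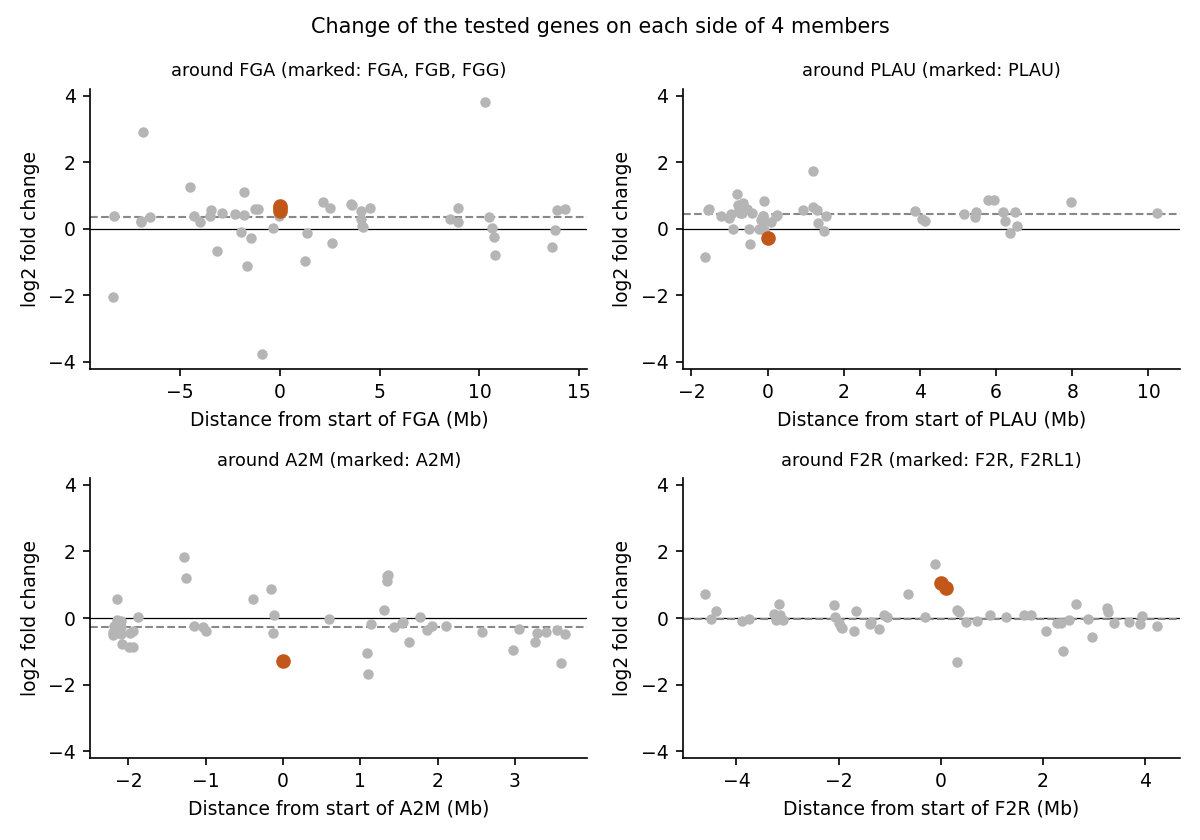
Log2 fold change of the 25 tested genes on each side of FGA, PLAU, A2M and F2R against their distance in Mb, with coagulation genes marked, 0 as a solid line and the neighbours' median dashed. The median is 0.37 around FGA and 0.43 around PLAU, which itself lies below 0, and -0.27 around A2M and -0.02 around F2R.

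In the extrinsic and common pathway all 5 genes were called, 3 higher and 2 lower. Of all tested genes 60.1% were called, 29.4% higher and 30.7% lower. F3, the gene of tissue factor, the membrane protein that starts clotting, was at 11.3, 11.3 and 12.9 CPM in WT and 15.2, 18.2 and 17.7 CPM in the knockout (log2 fold change 0.53, SE 0.08, edgeR adjusted p = 0.00014). The groups did not overlap, although the knockout libraries were more spread than the WT ones. F2, which encodes prothrombin, was at 111, 114 and 107 CPM in WT and 145, 146 and 147 CPM in the knockout (log2 fold change 0.40, SE 0.03, edgeR adjusted p = 4.6e-07). F5, the cofactor of factor X, fell from 125, 114 and 112 CPM to 88.9, 89.2 and 92.4 CPM (log2 fold change -0.38, SE 0.04, edgeR adjusted p = 8.5e-06), and its log2 fold change was -0.22 with the shift of its neighbours (median -0.16) removed.

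F7, F10 and PROZ lie in a row on chromosome 13 in the same orientation, with 2132 bases between F7 and F10 and 9124 bases between F10 and PROZ, and F7 and F10 were called in opposite directions. F7, the protease that tissue factor binds, was at 24.5, 24.9 and 23.6 CPM in WT and 27.8, 29.5 and 28.6 CPM in the knockout (log2 fold change 0.24, SE 0.05, edgeR adjusted p = 0.0013). F10, the protease that forms thrombin, was at 48.4, 45.6 and 44.7 CPM in WT and 36.9, 37.4 and 39.4 CPM in the knockout (log2 fold change -0.29, SE 0.05, edgeR adjusted p = 0.00021). PROZ, the cofactor of protein Z inhibitor, was at 4.51, 3.6 and 4.71 CPM in WT and 6.14, 5.17 and 5.20 CPM in the knockout (log2 fold change 0.35, SE 0.13, edgeR adjusted p = 0.029), a call kept in 11 of 15 alternatives. F7 had 0.506, 0.546 and 0.529 counts per F10 count in the WT libraries and 0.752, 0.789 and 0.726 in the knockout libraries, so the ratio did not overlap between groups (exact two-sided permutation p = 0.1, the smallest possible). The ratio had to separate, because all F7 values were higher and all F10 values lower in the knockout, so this p adds nothing. The neighbours of F7, F10 and PROZ had medians of 0.04 to 0.06. F10 and PROZ were the 2 of the 29 genes with a promoter window that held CAAAGTCCA, a core of the HNF4 motif found in 0.384% of all windows.

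In the contact and intrinsic pathway 3 genes were lower, 1 was higher, 1 was not called and 1 had no counts. That is 80.0% called of its 5 tested genes, beside 60.1% of all tested genes, of which 30.7% were lower. KNG1 encodes kininogen, the cofactor of contact activation and source of bradykinin, and was at 73.6, 65.9 and 68.9 CPM in WT and 33.3, 33.1 and 33.1 CPM in the knockout (log2 fold change -1.07, SE 0.05, edgeR adjusted p = 2.1e-09). KLKB1, the gene of prekallikrein, had few counts, 60, 51 and 50 counts in WT and 23, 16 and 10 in the knockout. The fall was called (log2 fold change -1.57, SE 0.28, edgeR adjusted p = 0.00035), and the ratio of summed counts, WT over knockout, was 2.99 (exact 95% interval 2.16 to 4.21, which covers counting error only). KLKB1 overlaps CYP4V2 on the same strand over 4478 bases, and CYP4V2 had a log2 fold change of -0.54. F11, the next protease of the pathway, starts 7473 bases beyond KLKB1 and fell from 12.4, 11.6 and 12.6 CPM to 8.91, 8.76 and 8.75 CPM (log2 fold change -0.47, SE 0.07, edgeR adjusted p = 9.7e-05). Each of these 3 genes had every knockout library below every WT library, and 65.8% of all tested genes had no overlap in either direction.

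The other genes of the pathway changed less or had few counts. F12, which starts the contact pathway, was at 58.5, 55.5 and 53.1 CPM in WT and 66.8, 69.3 and 64.4 CPM in the knockout (log2 fold change 0.26, SE 0.05, edgeR adjusted p = 0.00027), and GRK6, which overlaps it on the opposite strand, had a log2 fold change of 0.33. F8, the cofactor of factor IX, had 134 counts in WT and 129 in the knockout, a ratio of knockout over WT of 1.06 (exact 95% interval 0.824 to 1.36, counting error only), and was not called (adjusted p = 0.73). F9, the gene of the protease that factor VIII serves, had 0 counts in all 6 libraries, which allows up to 3 counts per group, or 0.0383 CPM in WT and 0.0421 CPM in the knockout.

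The promoters of KNG1 and KLKB1 are shown because these genes fell by over 1 on the log2 scale, with the same capitals as for fibrinogen.
KNG1, chr3:186717109-186717408, plus strand: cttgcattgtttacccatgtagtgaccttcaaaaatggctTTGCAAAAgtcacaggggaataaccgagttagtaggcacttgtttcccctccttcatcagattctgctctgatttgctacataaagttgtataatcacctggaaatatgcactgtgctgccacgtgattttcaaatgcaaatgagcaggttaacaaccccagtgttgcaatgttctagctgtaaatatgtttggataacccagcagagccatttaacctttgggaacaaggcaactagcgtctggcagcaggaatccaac
KLKB1, chr4:186227257-186227556, plus strand: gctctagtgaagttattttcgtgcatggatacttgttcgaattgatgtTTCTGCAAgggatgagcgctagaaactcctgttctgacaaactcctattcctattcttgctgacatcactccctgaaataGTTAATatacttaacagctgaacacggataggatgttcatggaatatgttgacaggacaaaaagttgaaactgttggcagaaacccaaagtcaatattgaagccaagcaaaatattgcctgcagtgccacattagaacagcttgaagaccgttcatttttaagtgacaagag
The C/EBP motif began 210 bases before the start in KNG1 and 202 in KLKB1, and KLKB1 held the GTTAAT motif 122 bases before the start. So the motifs of the FGA and FGB promoters were also present in promoters of genes that fell. KNG1 was the only one of the 29 genes with CACGTG, an E-box, in its window (7.26% of all windows).

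KNG1 had neighbours on chromosome 3 with a median of -0.20, 40 of 50 below 0, and had a log2 fold change of -0.86 with that shift removed. The antisense gene AC068631.1 overlaps KNG1 over 27135 bases and had no value of its own. HRG, which encodes a histidine-rich plasma glycoprotein that binds heparin and plasminogen, ends 39035 bases before KNG1. It had 57 counts in WT and 64 in the knockout (ratio of knockout over WT 1.23, exact 95% interval 0.850 to 1.80, counting error only) and was not called.

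Of the protein C system, PROC, the anticoagulant protease itself, was at 54.6, 58.5 and 58 CPM in WT and 62.8, 60.1 and 62.5 CPM in the knockout (log2 fold change 0.12, SE 0.04, edgeR adjusted p = 0.026). PROS1, its cofactor protein S, was at 199, 202 and 214 CPM in WT and 175, 176 and 179.9 CPM in the knockout (log2 fold change -0.21, SE 0.03, edgeR adjusted p = 0.00013), and a log2 fold change of -0.085 remained with the shift of its neighbours removed. THBD, the thrombin receptor thrombomodulin that activates protein C, had 0 counts in all 6 libraries, with the same limit as F9. The calls of PROC and PROZ were not stable. PROC was not called with DESeq2 (adjusted p = 0.089), without WT replicate 1, knockout replicate 1 or knockout replicate 3 (edgeR adjusted p = 0.052, 0.092 and 0.091), or with the neighbour shift removed (0.055). PROZ was not called with DESeq2 (adjusted p = 0.1), without WT replicate 2 or knockout replicate 1 (edgeR adjusted p = 0.1 and 0.12), or with the neighbour shift removed (0.056).

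Among the 7 genes listed here as inhibitors of coagulation 5 were lower, 0 were higher with edgeR and 2 were not called. So 71.4% were called beside 60.1% of all tested genes, of which 30.7% were lower. The 5 include TFPI2, whose call was kept in 9 of 15 alternatives. At an unadjusted edgeR p under 0.05, and with DESeq2 and limma-voom, 0 were higher as well. This holds for the listed genes only. Inhibitors counted in other lists moved both ways, SERPING1 up (log2 fold change 0.58) and A2M down (-1.29). SERPIND1, the gene of heparin cofactor II, an inhibitor of thrombin, was at 181, 156 and 156 CPM in WT and 87.8, 92.3 and 94.8 CPM in the knockout (log2 fold change -0.84, SE 0.05, edgeR adjusted p = 5.6e-08). WT replicate 1 stood above the other WT libraries, and all knockout libraries were below all WT libraries. SERPIND1 lies inside PI4KA, which runs on the opposite strand and had a log2 fold change of -0.50, and the 50 neighbours had a median of -0.31. With that shift removed SERPIND1 had a log2 fold change of -0.53, and it remained called.

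SERPINA10, the protein Z-dependent inhibitor of factor Xa, was at 11.7, 13.5 and 12.2 CPM in WT and 8.14, 8.46 and 8.33 CPM in the knockout (log2 fold change -0.58, SE 0.08, edgeR adjusted p = 3.7e-05). SERPINA5, the protein C inhibitor gene, lies 268170 bases away on chromosome 14 and was at 147, 156 and 155 CPM in WT and 158, 159 and 157 CPM in the knockout, not called (log2 fold change 0.044, SE 0.03, edgeR adjusted p = 0.25) although the values did not overlap. SERPINA5 had 12.6, 11.6 and 12.7 counts per SERPINA10 count in WT and 19.4, 18.8 and 18.8 in the knockout (exact two-sided permutation p = 0.1, the smallest possible). This ratio too had to separate, because all SERPINA5 values were higher and all SERPINA10 values lower in the knockout. SERPINC1, the gene of antithrombin, the main plasma inhibitor of thrombin and factor Xa, fell from 10.9, 12.6 and 11.4 CPM to 8.28, 8.98 and 8.06 CPM (log2 fold change -0.47, SE 0.08, edgeR adjusted p = 0.00035).

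TFPI, which blocks tissue factor with factor VII, was at 83.6, 82.4 and 82.8 CPM in WT and 65.6, 71.2 and 67.5 CPM in the knockout (log2 fold change -0.28, SE 0.04, edgeR adjusted p = 3.2e-05). Its relative TFPI2, an inhibitor of plasmin and other proteases in the matrix, was at 9.50, 9.31 and 8.81 CPM in WT and 8.82, 7.31 and 7.09 CPM in the knockout (log2 fold change -0.25, SE 0.09, edgeR adjusted p = 0.034), and there the groups overlapped. TFPI2 was not called with DESeq2 (adjusted p = 0.15). By edgeR it was not called without WT replicate 1 or 2 or without knockout replicate 2 or 3 (adjusted p = 0.054, 0.075, 0.12 and 0.15). With the shift of its neighbours (median -0.29) removed it had a log2 fold change of 0.039 (adjusted p = 0.76).

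In the plasminogen system 4 of 7 genes were lower, 1 was higher and 2 were not called, 71.4% called beside 60.1% of all tested genes. A2M encodes alpha-2-macroglobulin, a broad trap of proteases including plasmin and thrombin, and was at 870.4, 863 and 870.0 CPM in WT and 351, 356 and 354 CPM in the knockout (log2 fold change -1.29, SE 0.03, edgeR adjusted p = 2.9e-12). It had the smallest adjusted p of the 33 tested genes, and its SD was 4.28 CPM in WT and 2.63 CPM in the knockout. Its neighbours on chromosome 12 had a median of -0.27, and with that removed A2M had a log2 fold change of -1.02. CPB2, the carboxypeptidase TAFI that protects fibrin from plasmin, was at 61, 53.9 and 55.2 CPM in WT and 24, 23.9 and 24.2 CPM in the knockout (log2 fold change -1.24, SE 0.05, edgeR adjusted p = 2e-09). Its neighbours on chromosome 13 had a median of 0.04, and 1 of the 50 lay below it. The antisense gene CPB2-AS1 overlaps CPB2 over 51839 bases and had no value of its own.

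The promoter of CPB2 is shown as the other window of a gene that fell by over 1, with the same capitals.
CPB2, chr13:46104984-46105283, minus strand: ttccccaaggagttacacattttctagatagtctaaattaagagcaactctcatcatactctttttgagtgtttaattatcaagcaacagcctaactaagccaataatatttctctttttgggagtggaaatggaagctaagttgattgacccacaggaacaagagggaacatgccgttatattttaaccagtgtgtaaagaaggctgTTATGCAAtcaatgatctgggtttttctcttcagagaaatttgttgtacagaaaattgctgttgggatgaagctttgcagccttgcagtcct
It held the C/EBP motif 42 bases before the start and no GTTAAT motif.

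PLG, the gene of plasminogen, was at 18.8, 17 and 16.7 CPM in WT and 12.6, 13.6 and 13.2 CPM in the knockout (log2 fold change -0.42, SE 0.07, edgeR adjusted p = 0.0002). PLAU, the gene of the activator uPA, was at 17.2, 17.5 and 18.6 CPM in WT and 15.8, 13.4 and 14.7 CPM in the knockout (log2 fold change -0.28, SE 0.07, edgeR adjusted p = 0.0039). Both lie among neighbours whose values were mostly above 0, 42 of 48 around PLG (median 0.27) and 42 of 50 around PLAU (median 0.43), and went against them. With the shift removed their log2 fold changes were -0.68 and -0.71. SERPINF2, the main plasmin inhibitor in plasma, was at 226, 214 and 208 CPM in WT and 245, 238 and 243 CPM in the knockout (log2 fold change 0.16, SE 0.03, edgeR adjusted p = 0.0013), and a log2 fold change of 0.10 remained with the shift of its neighbours removed. PLAT, the gene of tPA, had 33 counts in WT and 34 in the knockout, and PLAUR, the uPA receptor, had 78 and 84. Their ratios of knockout over WT were 1.13 (exact 95% interval 0.681 to 1.89) and 1.18 (0.859 to 1.63), counting error only, and neither was called.

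The receptors had the 2 largest increases of the 33 tested genes. F2R encodes PAR1, the main thrombin receptor, and was at 22.4, 24.3 and 25.7 CPM in WT and 50.9, 50.2 and 48.4 CPM in the knockout (log2 fold change 1.04, SE 0.05, edgeR adjusted p = 7.5e-09). F2RL1 encodes PAR2, which trypsin and the tissue factor complex cleave, and was at 8.21, 8.06 and 8.35 CPM in WT and 14.6, 14.4 and 16.6 CPM in the knockout (log2 fold change 0.89, SE 0.08, edgeR adjusted p = 7.4e-07). They lie 83151 bases apart on chromosome 5 with no protein-coding gene between them (F2R from 76716043 to 76735781 and F2RL1 from 76818933 to 76835315). F2RL2, the gene of PAR3 and not one of the 35, starts 0.10 Mb before F2R, and was at 3.11, 2.96 and 2.71 CPM in WT and 9.50, 8.68 and 8.67 CPM in the knockout (log2 fold change 1.61, SE 0.10, edgeR adjusted p = 5.1e-08). So all 3 receptor genes of the cluster were higher, with no overlap between groups. Of all tested genes 29.4% were called higher and 65.8% had no overlap in either direction. The 50 neighbours of F2R had a median of -0.02, 49 of them lay below F2R, and the 1 above it was F2RL2. F2RL2 lies within IQGAP2, which runs on the opposite strand and had a log2 fold change of 0.03.

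**Figure D5:**
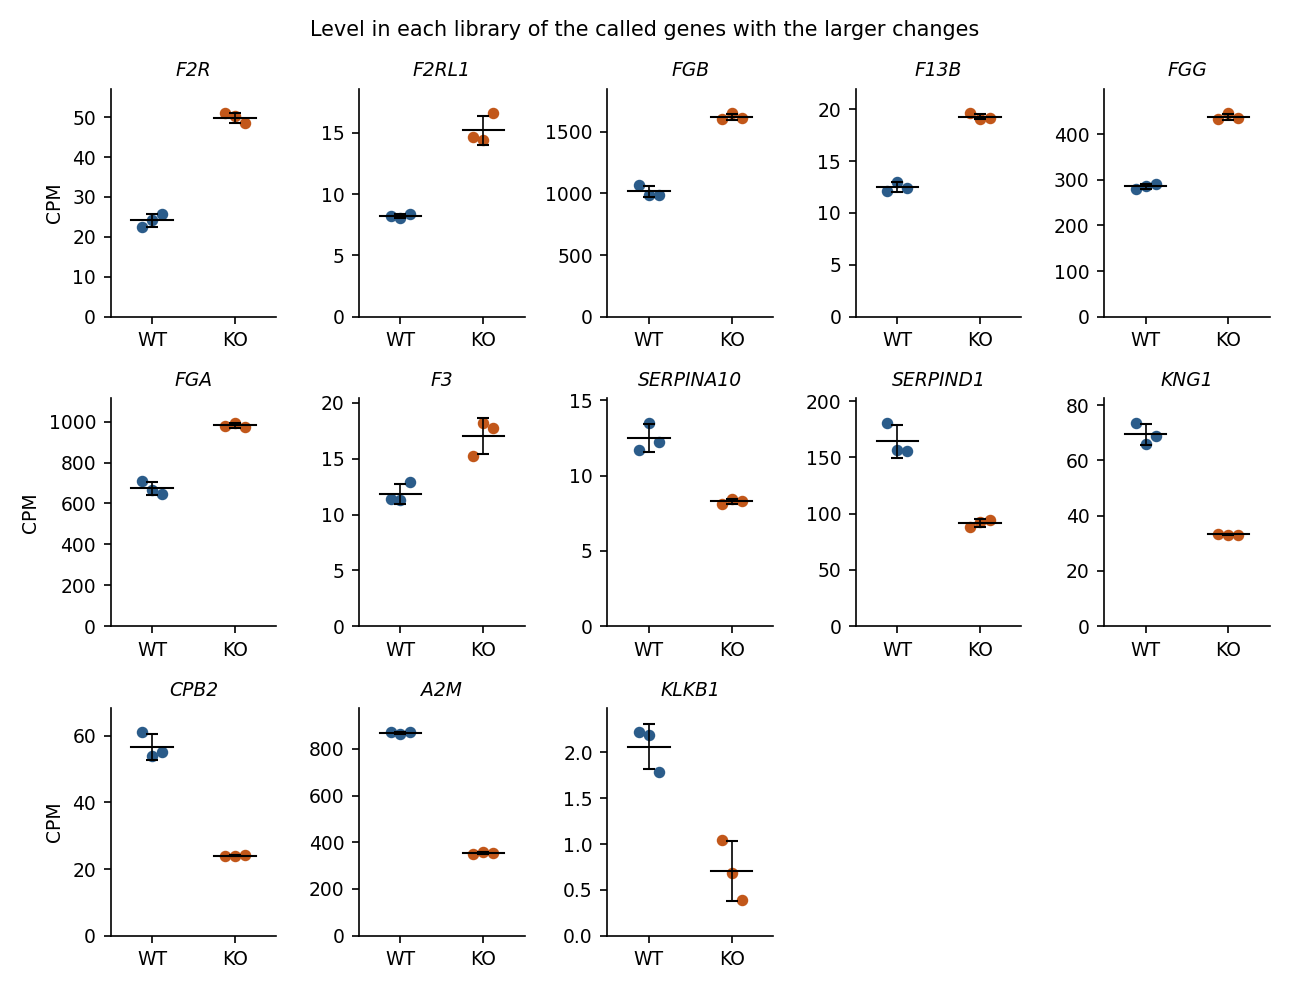
CPM in each library of the 13 called genes with a log2 fold change of at least 0.5 in size, from the largest rise (F2R) to the largest fall (KLKB1), with points for libraries and a line and bar for mean ± SD of 3. In no panel do wild type and knockout overlap, as at 65.8% of all tested genes, and this choice of genes makes overlap unlikely. KLKB1 is the panel with the lowest level, at most 2.22 CPM.

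Over the 29 of 35 genes with a RefSeq promoter window, 9 held the GTTAAT motif, FGA, FGB, F13B, F2, F2RL1 and PROC among the 11 called higher and KLKB1, PLG and SERPINA10 among the 13 called lower. Besides FGB, FGA and F13B, the motif began 55 bases before a start of SERPINA10 and 46 before a start of PLG. Elsewhere it began 227 bases before the start in F2RL1, 122 in KLKB1, 34 in F2 and 3 before a start of PROC. From another start of PLG it began 5 bases after. The C/EBP motif was held by 9 of the 29 genes, 3 called higher, 5 called lower and PLAUR, which was not called. CAAAG, a short HNF4 core contained in the longer one, was in 20 of the 29 (47.5% of all windows). The remaining motifs searched were the GC box GGGCGG, in 9 (45.0% of all), the TATA box TATAAA, in 3 (11.5%), and TGACG from the cyclic AMP response element, in 5 (24.6%). Genes with several windows were counted if any of them held the motif, whereas the shares of all are over single windows. A match describes letters alone.

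Of 72 other genes of the pathway, 62 were tested, 15 were higher and 29 lower, so that 71.0% were called beside 60.1% of all tested genes (29.4% higher and 30.7% lower). Among 25 further genes of the cascades 6 were higher and 7 lower of 18 tested (72.2% called). F2RL2, the von Willebrand factor protease gene ADAMTS13 (log2 fold change 1.05, SE 0.10) and the contact pathway inhibitor gene SERPING1 (0.58, SE 0.06) rose most. HPN, the protease hepsin (log2 fold change -0.90, SE 0.11), and C4BPA, a chain of the protein S carrier (-0.83, SE 0.07), were among those that fell, whereas C4BPB, the other chain of that carrier, rose (0.37, SE 0.06). HPN had a log2 fold change of -0.50 with the shift of its neighbours removed. VWF and PROCR had 4 and 2 counts in WT and 11 and 15 in the knockout and were not tested, and F13A1 had 0.

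Genes that modify and export the factors were lower at 6 and higher at 3 of 12, with 75.0% called beside 60.1% of all tested genes. GGCX, the vitamin K-dependent carboxylase that prothrombin and factors VII, IX and X need, was at 227, 231 and 231 CPM in WT and 156, 156 and 157 CPM in the knockout (log2 fold change -0.55, SE 0.03). The tyrosine sulfotransferase gene TPST2 (log2 fold change -0.74, SE 0.07) and LMAN1 (-0.28, SE 0.03), the cargo receptor of factors V and VIII, also fell. TPST2 had a log2 fold change of -0.44 with the shift of its neighbours removed. The quinone reductase gene NQO1 (log2 fold change 0.51, SE 0.04), TPST1 (0.20, SE 0.04) and the LMAN1 partner MCFD2 (0.17, SE 0.03) rose. With the shift removed the log2 fold change was 0.39 for TPST1 and 0.11 for MCFD2.

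Genes of plasmin and uPA binding at the cell surface were higher at 4 and lower at 2 of 8 (75.0% called beside 60.1% of all), led by IGF2R (log2 fold change 0.60, SE 0.03), S100A10 (0.48, SE 0.03) and ITGB1 (0.27, SE 0.03), while ENO1 and ITGA5 had a log2 fold change of -0.25 (SE 0.03 each). ENO1 had a log2 fold change of 0.085 with the shift of its neighbours removed (edgeR adjusted p = 0.017), and IGF2R at 0.34 and S100A10 at 0.20. Of 5 clearance receptors 3 were tested, and 33.3% of those were called, below the 60.1% of all tested genes. The called gene, ASGR2, a chain of the asialoglycoprotein receptor, was lower (log2 fold change -0.18, SE 0.03). Transcription factors and signalling genes known to act on these promoters were lower at 13 and higher at 2 of 21 tested genes, 71.4% called beside 60.1% of all tested genes, of which 30.7% were lower. Of the 13, STAT3 was called in 10 of 15 alternatives, and PPARA and ONECUT1 were not called with the neighbour shift removed (edgeR adjusted p = 0.53 and 0.1). KLF4 (log2 fold change -1.37, SE 0.10), FOXA3 (-0.83, SE 0.05) and PROX1 (-0.56, SE 0.03) fell most, and GABPA (log2 fold change 0.23, SE 0.05) and FOXA2 (0.20, SE 0.04) rose. HNF4A was at 340.0 CPM in WT and 286 CPM in the knockout (log2 fold change -0.25, SE 0.03).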

How the data were processed

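Poly(A) RNA was sequenced from 3 wild-type and 3 UBE2S knockout Huh7 libraries. The values deposited by the authors are estimated counts, most of them whole, and were rounded here before testing. Bowtie2 2.2.8, HISAT2, StringTie 1.3.1 and DESeq2 are named in the submitters' processing notes without their roles. The sources used here do not give the counter, annotation, build or strand setting, so reads of overlapping and antisense genes cannot be told apart.

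Groups come from the labels. Genes were kept by edgeR's filterByExpr with a minimum count of 10, scaled by TMM and tested by edgeR 4.0.16 quasi-likelihood over all 13265 tested genes in R 4.3.3, with Benjamini-Hochberg adjustment. Single ratios were tested by exact permutation over libraries. The script was tested on simulated data. Library totals of 21840499 to 27910396 give the depth, and 3 counts was taken as the limit for a gene at 0. Intervals and limits cover counting error only.

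Positions come from GENCODE 29 (GRCh38), matched by gene ID for 20171 of 20289 genes. A neighbour shift is the median log2 fold change of the 25 nearest tested genes on each side on the same chromosome, removed as an offset and refitted. Promoters come from RefSeq (GRCh38.p14), with windows for 29 of the 35 genes. The 35 genes and all other lists were chosen with earlier results of these data known. Named from the lists are the 3 genes that changed most in each direction, except for items not reported here. Alternatives were DESeq2 1.42.0, limma-voom (limma 3.58.1), other scalings and filters, a threshold of 0.01, a replicate block, the neighbour shift, and each library left out.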

Additional observations from a re-analysis of the deposited data

How the results depend on the processing

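Of the 28 called coagulation genes, 25 kept their call in all 16 alternatives run, PROC, PROZ and TFPI2 being the exceptions. Of 526 gene values under alternatives, 506 kept direction and side of the threshold, 17 lost the call and 3 changed sign. Signs changed for TFPI2 (0.039) and, among the other pathway genes, ENO1 (0.085) with the shift of chromosome neighbours removed, for F8 without knockout replicate 1 (-0.11, with 0.22 as the highest value over libraries left out) and for PLAT without knockout replicate 2 (-0.25, highest 0.53). F8 and PLAT were not called in the first place, and the cause was not tested. The median log2 fold change of the tested coagulation genes was 0.018 without WT replicate 1, and 0.018 to 0.128 over the libraries left out in turn. The number of genes called, knockout against wild type, ran from 6472 at a threshold of 0.01 to 8457 without WT replicate 1. With the replicate number as a replicate block 7913 genes were called, and 13 coagulation genes were higher and 15 lower. Libraries with the same number did not deviate together (correlations 0.044, -0.049 and -0.039 over 5000 genes). Those with different numbers had correlations from -0.0594 to 0.0945. The labels state no pairing, and this check cannot exclude one, because paired samples need not deviate together. Depth limits F8, HRG, PLAT, PLAUR and KLKB1, and F9 and THBD were below the limit of detection.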
